A study of Homo sapiens and Mus musculus with 33 samples.

Results

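The enzymes that write and remove methylation of lysine 4 of histone H3 (H3K4) were described here as 10 genes chosen by name. They comprised 6 methyltransferases (KMT2A, KMT2B, KMT2C, KMT2D, SETD1A and SETD1B), the core complex subunits WDR5 and ASH2L, and the demethylases KDM5A and KDM5B. All 10 were found among the 35805 genes of the HCT116 RNA table and the 25965 genes of the colon RNA table, where Kmt2a, Kmt2b, Kmt2c and Kmt2d appear under the older names Mll1, Wbp7, Mll3 and Mll2. Peaks in or within 2 kb of these genes numbered 18 of 40266 in the HCT116 ChIP-seq table, 14 of 30338 in the colon H3K18cr table and 27 of 27035 in the colon H3K4me3 table. HCT116, a human colon carcinoma line, was treated for 18 h with 5 µM MS275, an inhibitor of class I histone deacetylases, or with the solvent DMSO as control. RNA-seq was done in 4 libraries per treatment, ChIP-seq for crotonylated (H3K18cr) and acetylated (H3K18ac) lysine 18 in 3 libraries per mark and treatment, with 1 input library per treatment. Untreated colon epithelium of male C57BL/6 mice was assayed by RNA-seq (3 mice), H3K4me3 ChIP-seq (3 libraries, 1 input) and H3K18cr ChIP-seq (2 libraries, 2 inputs). The study's methods pool 3 colons for 3 colon ChIP experiments and call the H3K4me3 libraries biological replicates, while a figure legend names 2 mice. Whether colon ChIP-seq libraries share animals is therefore not clear. The 4 HCT116 RNA libraries of a treatment were biological replicates by the study's methods, whereas the labels give 3 HCT116 ChIP-seq libraries per mark and treatment without saying whether they came from separate cultures. The methods count 2 replicates for HCT116 H3K18cr, and elsewhere the study treated both marks as 3 pairs. The ChIP-seq p-values measure the spread between libraries, part of which may be technical.

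Trimethylated H3K4 marks the starts of active genes, and monomethylated H3K4 marks enhancers. SETD1A and SETD1B place most trimethylation at promoters, KMT2A and KMT2B act at selected promoters, and KMT2C and KMT2D place monomethylation at enhancers, each within a COMPASS-type complex that shares the scaffold WDR5 and the catalytic cofactor ASH2L. KDM5A and KDM5B remove trimethylation and dimethylation again, and several of these genes are recurrently altered in colorectal and other cancers.

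The HCT116 RNA libraries held between 35608533 and 53415604 counts and the colon RNA libraries between 8166406 and 10707901. Both RNA libraries numbered 3 had the lowest TMM factors, 0.887 and 0.881, whereas those of the other 6 libraries lay between 0.998 and 1.06. The HCT116 ChIP libraries held between 2236551 and 5730094 reads in peaks. Summed epithelial markers (7 genes) lay between 3625 and 5675 CPM (counts scaled to an equal library size) in HCT116 cells and between 8031 and 9442 in colon, and VIL1 was at 0 in 4 of the 8 HCT116 libraries. Summed immune markers (6 genes) stayed between 4.76 and 11.7 CPM in HCT116 cells and between 22.9 and 37.1 in colon. CD68 went against its sum, at 4.35 to 11.6 CPM in HCT116 cells and 0.735 to 1.34 in colon. Summed stromal markers (6 genes) lay between 11.0 and 13.3 CPM with DMSO and between 22.6 and 24.99 with MS275, and between 26.2 and 43.1 in colon, and their part in the results was not tested.

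The sequence before the gene start is shown for KMT2C, whose start had the lowest H3K18cr change of the 10, and for SETD1A, 1 of the 5 starts called lower in both marks, beside KMT2A and KDM5B, called in neither. Each line gives the 250 bases before the RefSeq start (GRCh38.p14), on the strand of the gene, with matches to GGGCGG (the GC box bound by SP-family factors) on either strand in capitals. The windows were chr7:152436004-152436253 (minus strand) for KMT2C, chr16:30957504-30957753 (plus) for SETD1A, chr11:118436242-118436491 (plus) for KMT2A and chr1:202808422-202808671 (minus) for KDM5B, and each lay inside the H3K18cr and H3K18ac peak at that start.
KMT2C: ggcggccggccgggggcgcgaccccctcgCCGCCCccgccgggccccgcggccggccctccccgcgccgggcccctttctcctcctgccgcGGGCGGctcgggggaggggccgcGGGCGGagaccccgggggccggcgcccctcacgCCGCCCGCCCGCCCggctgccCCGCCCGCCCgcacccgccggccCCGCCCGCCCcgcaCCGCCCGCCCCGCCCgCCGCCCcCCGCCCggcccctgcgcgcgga
SETD1A: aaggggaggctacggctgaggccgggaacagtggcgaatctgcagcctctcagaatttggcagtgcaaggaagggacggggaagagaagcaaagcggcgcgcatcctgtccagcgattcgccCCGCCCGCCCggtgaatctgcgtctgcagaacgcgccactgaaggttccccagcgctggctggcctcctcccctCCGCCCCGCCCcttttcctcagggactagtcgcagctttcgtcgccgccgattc
KMT2A: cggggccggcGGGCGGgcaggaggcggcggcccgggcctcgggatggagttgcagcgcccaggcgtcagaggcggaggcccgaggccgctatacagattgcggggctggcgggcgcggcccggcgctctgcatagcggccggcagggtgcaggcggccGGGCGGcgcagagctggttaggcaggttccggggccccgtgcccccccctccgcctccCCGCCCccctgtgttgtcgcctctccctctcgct
KDM5B: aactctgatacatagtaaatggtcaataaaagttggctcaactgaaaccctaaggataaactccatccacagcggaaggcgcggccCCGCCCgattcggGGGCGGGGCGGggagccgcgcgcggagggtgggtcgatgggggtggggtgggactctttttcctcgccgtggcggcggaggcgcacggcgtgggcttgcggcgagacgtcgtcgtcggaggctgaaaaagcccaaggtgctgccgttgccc
The KMT2C window was 92.0% G or C with 48 CpG dinucleotides, against medians of 58.0% and 11 over 35116 human promoter windows of the same length. It held 15 GC boxes, overlapping ones counted each, and 7 of the 35116 windows, KMT2C among them, held as many or more. SETD1A held 4, KMT2A 3 and KDM5B 3, and 42.6% of all windows held at least 1. Of the 8 genes with a RefSeq window used here, all held at least 1 GC box. CCGGAAG (ETS factors), the NRF1 motif, CACGTG (E-box) and TGACGTCA (cAMP response element), searched on both strands and present in 8.52%, 5.07%, 6.34% and 1.65% of all windows, were found in none of the 4 windows shown. Of the other 4 windows, that of WDR5 held 1 NRF1 motif and that of KMT2D 1 E-box.

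Levels between genes were compared per kilobase of merged exons (RPKM). In DMSO-treated HCT116 cells WDR5 stood first at 28.1 ± 5.497 RPKM (mean ± SD, n = 4) and KMT2C last at 0.360 ± 0.0803. ASH2L (10.2 ± 1.83) and SETD1A (9.90 ± 1.55) followed WDR5 and overlapped each other, and KDM5A (3.87 ± 0.620), SETD1B (3.18 ± 0.504), KMT2D (3.16 ± 0.305), KMT2A (2.77 ± 0.440), KMT2B (2.47 ± 0.704) and KDM5B (1.64 ± 0.865) formed a run in which every gene overlapped its neighbour. WDR5 lay above the others, SETD1A above KDM5A and KDM5B above KMT2C in every library. Placed among 12091 protein-coding genes that passed the edgeR filter on low counts, WDR5 was at percentile 87.4 and KMT2C at percentile 10.2. Merged exons of KMT2C (53322 bp), KMT2A (31469 bp), KDM5B (24899 bp) and ASH2L (5659 bp) exceed their longest transcripts (16860, 16725, 9485 and 2918 bp). Per longest transcript KMT2C was still last at 1.14 ± 0.254, whereas KMT2A moved from rank 7 to rank 4 and KDM5B from rank 9 to rank 6. ASH2L (19.7 ± 3.54) and SETD1A (10.7 ± 1.68) no longer overlapped on that scale.

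Whether MS275 changed RNA from these genes was tested with edgeR over 14961 genes. Without regard to replicate number, 0.00668% of genes (1 gene) were called at an adjusted p under 0.05 and 0 of the 10 were called, 1 of them (SETD1B) at an unadjusted p under 0.05. DESeq2 called 161 genes and also 0 of the 10. Same-numbered DMSO and MS275 libraries deviated together, so values with the replicate number added to the model (the block) are also given. With the block, KMT2A and KMT2C were called higher against a background of 7.83% of genes, and SETD1B and WDR5 lower against 6.55%, that is 4 of the 10. For all 10 genes the DMSO and MS275 libraries overlapped, and the groups did not overlap for 5.37% of genes. Fewer cells expressing a gene and less RNA per cell cannot be told apart in these bulk samples.

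Among the methyltransferases, KMT2C, which places monomethylation at enhancers, was at 21.9, 21.1, 12.8 and 21.0 CPM in DMSO libraries 1 to 4 and at 24.6, 32.2, 18.4 and 36.1 in MS275 libraries 1 to 4. It was higher with MS275 in every pair, and the groups overlapped only through MS275 library 3, which lay below 3 of the 4 DMSO libraries. The log2 change was 0.53 ± 0.26 (SE) with an adjusted p of 0.774 by edgeR without the block, and 0.52 ± 0.13 with 0.0198 with it. KMT2A, founding member of the MLL family and known for its fusions in leukaemia, was at 68.7, 84.6, 95.5 and 99.8 CPM with DMSO and at 114, 87.7, 127 and 123 with MS275. All 4 pairs were higher, by between 0.05 and 0.72 on the log2 scale. The change was 0.37 ± 0.18 (edgeR adjusted p = 0.777), or 0.37 ± 0.10 with the block (0.0245). SETD1B moved the other way, from 29.1, 21.1, 27.4 and 31.1 CPM to 21.9, 16.0, 19.3 and 22.04. Each pair was lower, by between 0.38 and 0.49, with only DMSO library 2 inside the MS275 range. Its log2 change was -0.46 ± 0.20 (edgeR adjusted p = 0.706), or -0.45 ± 0.12 with the block (0.0208). The 3 remaining methyltransferases were called in neither fit. KMT2B went from 26.7 ± 7.60 to 22.4 ± 5.09 CPM (mean ± SD, n = 4), KMT2D from 80.4 ± 7.77 to 72.5 ± 13.9 and SETD1A from 69.2 ± 10.8 to 61.2 ± 6.72, with adjusted p between 0.250 and 0.305 in the edgeR fit with the block.

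Of the core subunits, WDR5 was at 119, 94.8, 117 and 77.2 CPM with DMSO and at 85.8, 61.2, 114 and 68.7 with MS275. All 4 pairs were lower, the third by 0.04 on the log2 scale and the second by 0.62. The log2 change was -0.31 ± 0.23 (edgeR adjusted p = 0.903), or -0.33 ± 0.10 with the block (0.0423). ASH2L, at 57.5 ± 10.3 CPM with DMSO and 55.8 ± 7.48 with MS275, had a log2 change of -0.04 ± 0.19, and 1 of its 4 pairs was higher. Of the demethylases, KDM5A was at 46.5 ± 7.45 CPM with DMSO and 53.4 ± 18.1 with MS275 (log2 change 0.20 ± 0.24, edgeR adjusted p = 0.947). KDM5B, which is often raised in tumours, varied most between libraries of 1 treatment, at 25.1, 43.6, 24.2 and 70.1 CPM with DMSO and 29.2, 54.4, 21.8 and 92.2 with MS275. Its highest and lowest DMSO libraries differed 2.90-fold, and the order of the numbers was the same in both treatments. The log2 change was 0.28 ± 0.46 (edgeR adjusted p = 0.971), or 0.20 ± 0.11 with the block (0.239).

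**Figure D1:**
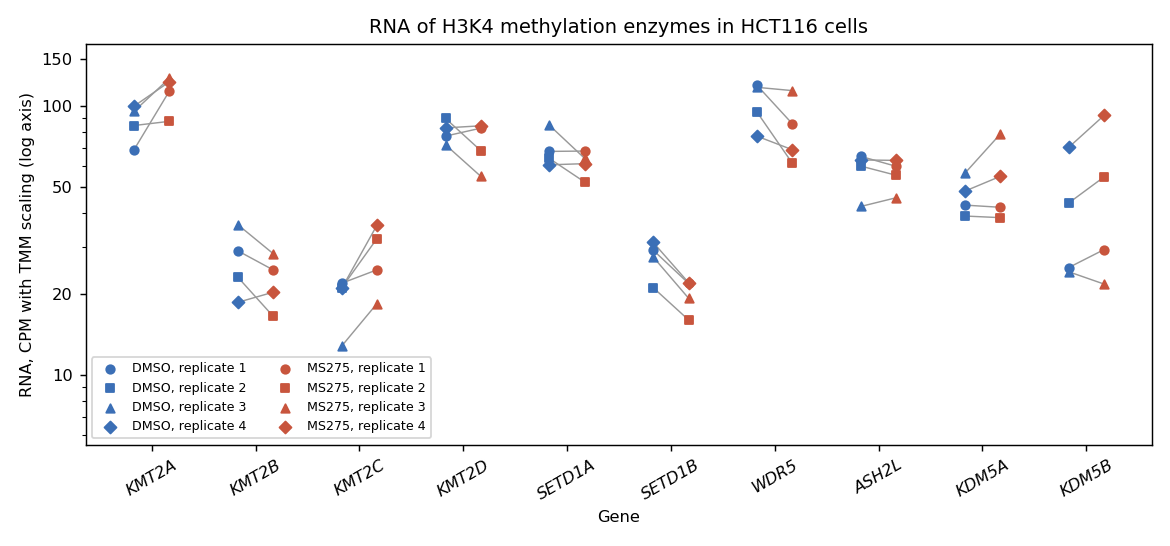
CPM after TMM scaling (log axis) of the 10 genes in the 4 DMSO and 4 MS275 libraries of HCT116 cells; lines join libraries with the same replicate number. All 4 lines rise for KMT2A and KMT2C and fall for SETD1B and WDR5, while the KDM5B libraries spread from 21.8 to 92.2 CPM.

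The calls with the block depend on which pairs are kept. Without pair 3, which holds the libraries with the lowest TMM factors, 5 of the 10 were called by edgeR, KDM5B (log2 change 0.31, adjusted p = 0.0394) joining the 4. Without pair 1 only KMT2C was called (adjusted p = 0.0248), without pair 2 only KMT2A (0.0347), and without pair 4 none, with adjusted p of 0.0637 for KMT2A, 0.152 for KMT2C, 0.126 for SETD1B and 0.0642 for WDR5. The direction of these 4 genes was the same in each of the fits. Over all 17 RNA settings the log2 change ranged from 0.25 to 0.46 for KMT2A and from 0.38 to 0.69 for KMT2C. It ranged from -0.56 to -0.38 for SETD1B and from -0.51 to -0.21 for WDR5. Whether counting used strand is not given in the sources used here, and KMT2A shares 14922 bp with an antisense gene, RP11-770J1.3, from which its reads may not be separable.

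Other genes of the pathway were read from the same fits, and without the block none of them was called. Of 14 further COMPASS subunits tested, 4 were called lower with the block and 0 higher, against 6.55% and 7.83% of all genes. HCFC1, a host cell factor subunit of the SETD1 and MLL1 complexes, had a log2 change of -0.54 ± 0.09 (edgeR adjusted p = 0.00212 with the block), and PAGR1, a subunit of the KMT2C and KMT2D complexes, -0.51 ± 0.10 (0.00593). BOD1, a partner of the SETD1B complex, was at -0.34 ± 0.09 (0.0221). DPY30, a core subunit next to WDR5 and ASH2L, was at -0.31 ± 0.09 (0.0417), and its DMSO and MS275 libraries did not overlap (68.1 ± 7.96 and 54.8 ± 1.69 CPM). Of 4 further demethylases KDM1B alone was called, at 0.57 ± 0.09 (0.00265). Of 14 readers of trimethylated H3K4, ING5 (-0.55 ± 0.16, 0.0385) and PHF2 (-0.58 ± 0.13, 0.0121) were called lower and 0 higher, against the same 6.55% and 7.83%, and 0 of 5 further methyltransferases tested were called. Median log2 changes with the block were -0.10 over the 10 genes, -0.02 over the 14 subunits and 0.01 over all genes. CDKN1A, a gene known to respond to deacetylase inhibitors, changed by 0.28 ± 0.07 (edgeR adjusted p = 0.0167 with the block and 0.870 without). The genes whose log2 CPM followed WDR5 most closely over the 8 libraries were PAM16 (Pearson's r = 0.991), TAF6L (0.986) and CIAPIN1 (0.985), which is a description over libraries that share their treatment and replicate numbers.

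Each of the 10 genes had 1 peak at its start in the HCT116 ChIP-seq table. Its values are log2 reads scaled to the largest library, given here as scaled reads. Such values are shares of a library's reads, so a lower value is a smaller share of reads at that peak relative to the other reads, and the total amount of a mark was not measured by them. Every change in H3K18cr and H3K18ac given here is relative in this sense. The H3K18cr share was lower with MS275 at 8 of these 10 start peaks by limma (adjusted p under 0.05), against a background of 36.4% of 12788 peaks within 1 kb of a protein-coding start. In 9 of the 10, every MS275 library lay below every DMSO library, which held for 62% of those peaks. The median log2 change was -0.79 over the 10 and -0.54 over all start peaks.

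KMT2C had the lowest change. Its start peak (GRCh38 chr7:152435551-152436600, over the first exon and the sequence shown) held 42.0, 45.04 and 58.8 scaled H3K18cr reads with DMSO and 24.7, 16.995 and 12.6 with MS275. The groups stood apart, at -1.46 ± 0.25 on the log2 scale (limma adjusted p = 0.0183), lower than all but 0.0782% of start peaks. These were also the fewest reads of the 10, with 14.3 and 12.7 in the DMSO and MS275 inputs. ASH2L went from 220, 183 and 192 scaled reads to 102, 92.1 and 107 (-0.98 ± 0.18, limma adjusted p = 0.0183). At WDR5 (chr9:134134501-134137350) 270, 274 and 173 reads stood against 139, 146 and 109 (-0.84 ± 0.23, adjusted p = 0.0334), so that each MS275 library was below the lowest DMSO library. SETD1B had the widest peak, 15900 bp (chr12:121791151-121807050), wider than 99.0% of all peaks and reaching the start of RHOF. It held 2024, 1870 and 1377 reads with DMSO and 936, 929 and 982 with MS275 (-0.87 ± 0.19, limma adjusted p = 0.0209). SETD1A (chr16:30955951-30959250) had near-equal DMSO libraries, 287, 293 and 291, against 143, 147 and 220 with MS275 (-0.80 ± 0.21, adjusted p = 0.0293).

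KMT2B (405, 370 and 268 reads with DMSO, 173, 224 and 202 with MS275), KMT2D (416, 338 and 286 against 226, 222 and 215) and KDM5A (130, 169 and 148 against 79.9, 85.0 and 104) also stood apart between treatments. KMT2B (-0.79 ± 0.21, limma adjusted p = 0.0327), KDM5A (-0.74 ± 0.19, 0.0300; the peak also holds the start of CCDC77) and KMT2D (-0.63 ± 0.19, 0.0487) were called lower. KMT2A and KDM5B were the pair not called. The KMT2A start peak (chr11:118434751-118438500) held 255, 227 and 179 reads with DMSO and 177, 171 and 166 with MS275, a small gap with no overlap (-0.35 ± 0.19, limma adjusted p = 0.249). KDM5B (chr1:202806901-202809000) held 139, 104 and 125 against 96.7, 75.1 and 118, and these groups overlapped (-0.36 ± 0.21, adjusted p = 0.300). On the log2 scale input reads moved most at these 2 starts, from 54.8 to 79.3 at KMT2A and from 45.6 to 24.1 at KDM5B, with 1 input library per treatment, and the part of the input in these values was not tested. Set over input, H3K18cr was lower with MS275 at 9 of the 10 starts, and the log2 ratio at KDM5B stood at 1.41 with DMSO and at 1.96 with MS275.

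**Figure D2:**
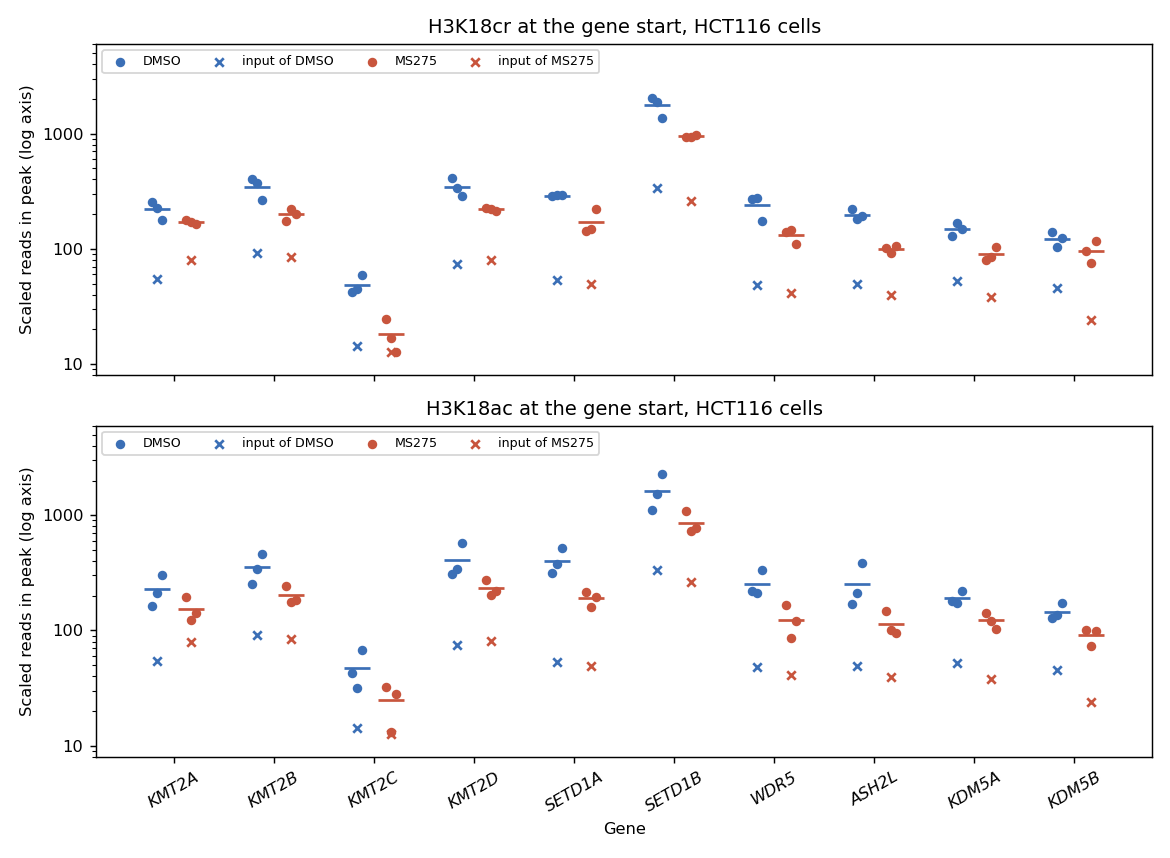
Scaled reads (log axis) in the start peak of each gene for H3K18cr (top) and H3K18ac (bottom); points are the 3 libraries of a treatment, horizontal bars their means and crosses the single input library. MS275 libraries lie below all DMSO libraries at 9 of 10 starts for H3K18cr and at 8 of 10 for H3K18ac, and KMT2C has the fewest reads.

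The H3K18ac share of reads was lower at 5 of the 10 start peaks by limma, against 31.4% of 12786 start peaks, and MS275 libraries were below all DMSO libraries at 8 of the 10, against 50%. The median log2 change was -0.83 over the 10 and -0.60 over all start peaks. SETD1A held 312, 379 and 516 scaled reads with DMSO and 216, 160 and 196 with MS275, with no overlap (-1.06 ± 0.26, limma adjusted p = 0.0115). WDR5 went from 220, 210 and 332 to 165, 85.8 and 121 (-1.06 ± 0.28, adjusted p = 0.0151), again without overlap. ASH2L went from 169, 210 and 387 to 148, 101 and 94.3 (-1.10 ± 0.29, adjusted p = 0.0157), the highest DMSO value coming from the third library. SETD1B, from 1113, 1522 and 2259 reads to 1091, 726 and 769 (-0.88 ± 0.28, limma adjusted p = 0.0355), and KMT2C (-0.97 ± 0.31, 0.0387) completed the 5. At KMT2C the groups overlapped, with 43.0, 31.7 and 66.9 reads against 32.5, 13.2 and 28.3. Values were -0.78 ± 0.27 at KMT2B (limma adjusted p = 0.0537), -0.76 ± 0.27 at KMT2D (0.0621), -0.69 ± 0.26 at KDM5B (0.0745), -0.65 ± 0.25 at KDM5A (0.0951) and -0.55 ± 0.27 at KMT2A (0.208). Set over the single input of each treatment, H3K18ac at the KDM5B start turned direction, at a log2 ratio of 1.66 with DMSO and 1.87 with MS275. The third DMSO library had the highest H3K18ac value at each of the 10 starts, and without it 0 of the 10 and 1048 peaks of the table were called.

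A call in H3K18cr and not in H3K18ac does not show that the marks differed, so the difference itself was tested. The H3K18cr change minus the H3K18ac change ranged from -0.49 ± 0.47 (SE) at KMT2C to 0.33 ± 0.32 at KDM5B over the 10 starts. By limma 0 of 40237 peaks were called, 1038 at an unadjusted p under 0.05 and 0 of the 10 starts among them, and edgeR on whole reads also called 0. With these errors a difference of the size seen at KMT2C is not detectable. RNA and start-peak changes stood side by side as follows. SETD1B and WDR5, called lower in RNA with the block, were called lower in both marks. KMT2C was called higher in RNA with the block and lower in both marks, and KMT2A was called higher in RNA and in neither mark. ASH2L (RNA log2 change -0.03 ± 0.09 with the block) and SETD1A (-0.17 ± 0.10) were called lower in both marks and in neither RNA fit. KMT2B, KMT2D and KDM5A were called lower in H3K18cr alone, and KDM5B in none of the 3.

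**Figure D3:**
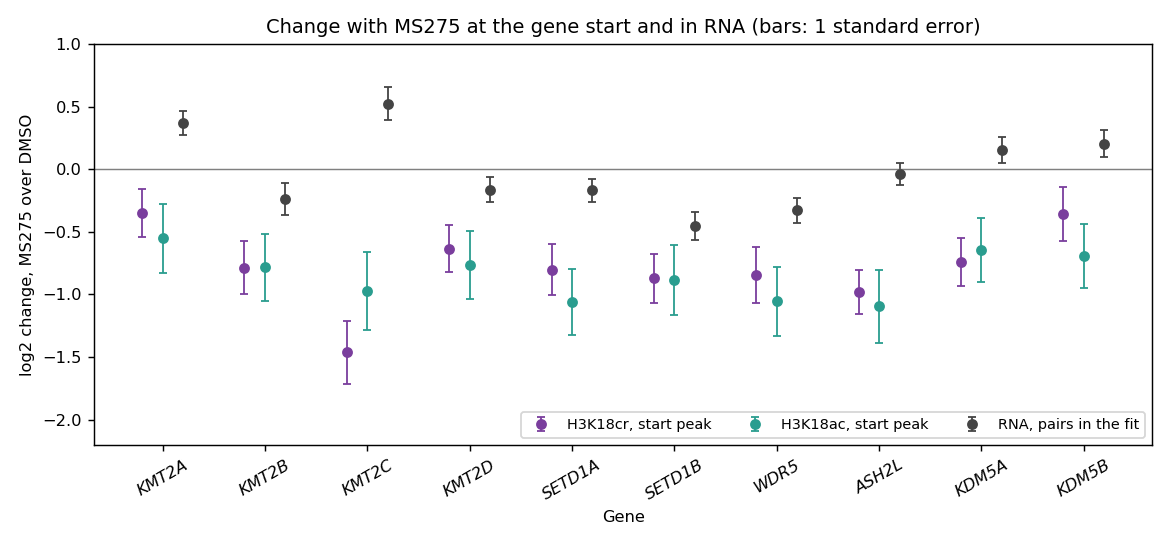
The log2 change with MS275 over DMSO for each gene in H3K18cr and H3K18ac at its start (limma) and in RNA (edgeR with pairs in the fit); bars are 1 standard error. KMT2C pairs the lowest H3K18cr value (-1.46) with the highest RNA value (0.52), and the marks of all 10 genes lie below 0.

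The number of start peaks called depended on the combination of scaling and variance model, and on single libraries. edgeR on whole reads, with TMM scaling, called 8 of the 10 for H3K18cr and 5468 peaks of the table. With TMM scaling over the peaks, limma without a trend called 0 peaks of the table for H3K18cr, and 0 of the 10, whose changes shrank to between -0.11 (KMT2A) and -1.17 (KMT2C). The median over all peaks moved from -0.20 to 0.03 with this scaling. The same scaling with a trend in the variance prior, added after the data were seen, called 8 of the 10, all but KMT2A and KDM5B, with -1.17 at KMT2C (limma adjusted p = 0.00867). It called 5199 of the 39399 peaks tested. Without DMSO library 1 or 2, or MS275 library 1 or 2, 0 of the 10 and 0 peaks of the table were called for H3K18cr. Without MS275 library 3, 5 of the 10 and 5753 peaks of the table were. For H3K18ac, TMM scaling left 3 of the 10, and a trend in the variance prior gave 8. Of the 39479 peaks tested these settings called 4304 and 6652, against 4765 in the main fit. Without MS275 library 2, 1 of the 10 and 1598 peaks of the table were called. Without DMSO library 1 or MS275 library 1, 8 of the 10 were, with 7567 and 7287 peaks of the table.

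Away from the starts of the 10 genes, 1 peak of the 8 others was called lower in H3K18cr. Of these 8, 3 lie within 1 kb of the start of another gene, where the background is the 36.4% given for start peaks, and 5 lie elsewhere, where 3.6% of 26611 peaks were called lower. The called peak is 1 of the 3. In H3K18ac limma called 0 of the 3, against 31.4% of start peaks, and 0 of the 5, against 2.28% of peaks elsewhere. At an unadjusted p under 0.05 stood 1 of the 8, the same peak as in H3K18cr. This peak covers the start of PRKAG1 (chr12:49017451-49020450), over 1473 bp of the last part of KMT2D, and its H3K18cr changed by -0.83 ± 0.19 (limma adjusted p = 0.0216) and its H3K18ac by -0.70 ± 0.27 (0.0858). The other peaks named here were chosen after their values were seen. Peaks at HSD3B7 beside SETD1A and at IGFLR1 beside KMT2B were not called in either mark. KMT2C had 2 intronic peaks, with H3K18cr changes of -0.27 ± 0.19 and 0.18 ± 0.23. The KDM5B peak upstream of the start (chr1:202810201-202813350) had 96.0, 94.2 and 97.4 H3K18cr reads with DMSO and 91.1, 96.3 and 146 with MS275, while its H3K18ac went from 113, 142 and 142 to 110, 97.3 and 83.8. Its difference between marks was 0.62 ± 0.31 (unadjusted p = 0.0579, limma adjusted p = 1.00), the largest of the 18 peaks and not called.

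In mouse colon epithelium, Wdr5 again had the highest RNA level per kilobase, 16.6 ± 0.979 RPKM (mean ± SD, n = 3). Kmt2b (9.38 ± 0.750), Setd1a (9.31 ± 1.08) and Ash2l (8.06 ± 0.463) followed, each overlapping its neighbour. Setd1a shares 14515 bp of its interval with Hsd3b7 on the same strand, so its count is uncertain. Kmt2d (6.54 ± 0.654), Kdm5a (5.91 ± 0.237), Kdm5b (5.05 ± 0.386), Kmt2c (4.99 ± 0.536), Setd1b (4.87 ± 0.843) and Kmt2a (4.24 ± 0.418) came next, with Kdm5b to Kmt2a overlapping from neighbour to neighbour. Per longest transcript Ash2l moved from rank 4 to rank 2 (19.5 ± 1.12) and overlapped Wdr5 (20.6 ± 1.22), and Kmt2d moved from rank 5 to rank 9. Per merged exon, colon levels spanned a narrower range than in HCT116 cells. Kmt2c stood at percentile 50.7 of 13805 protein-coding genes with a level above 0 in colon. That set had no filter on low counts, unlike the HCT116 set. Merged exons of this gene are also 20291 bp in mouse against 53322 bp in human, so its percentiles in colon and HCT116 cells are not on a like scale. Over the 10 genes the order in colon and in DMSO-treated HCT116 cells had a Spearman's rho of 0.53, a description across genes of 2 species in tables normalized separately.

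Every gene also had an H3K4me3 peak and an H3K18cr peak at its start in colon. Over input, with 1 read added to each, H3K4me3 at these starts ranged from 2.45 at Ash2l to 4.18 at Kdm5b on the log2 scale, with a median of 3.13 against 2.46 over 14457 start peaks of the table. The Kdm5b peak (GRCm38 chr1:134559751-134562000) held 418, 701 and 1003 scaled reads in the 3 ChIP libraries and 38.0 in the input. It lay higher over input than 99.9% of all H3K4me3 peaks, and by this ratio it stood first among the 10, at the gene for an enzyme that removes this mark. By ChIP minus input it ranked 3, after Setd1b and Kmt2d, whose peaks are wider, and by that difference per bp of peak it ranked 1. Kmt2c (395, 778 and 961 reads, input 54.0) and Kmt2d (377, 829 and 1015, input 66.0) followed by ratio. ChIP library 1 was the lowest of the 3 at each of the 10 starts. H3K18cr over input ranged from 1.22 at Kdm5a to 2.24 at Setd1b, with a median of 1.83 against 1.53 over 11435 start peaks. The Setd1b domain was 9450 bp wide in H3K18cr (873 and 1712 reads, inputs 244 and 302) and 10950 bp in H3K4me3 (991, 1624 and 1975 reads, input 176), wider than 99.8% and 99.99% of the peaks of those tables. Kdm5b followed in H3K18cr at 2.21, with 269 and 383 reads against 71.0 and 68.7 in the inputs. Peaks of a table were chosen for their reads, with the input as reference for H3K4me3 by the study's methods, so these ratios are a description.

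**Figure D4:**
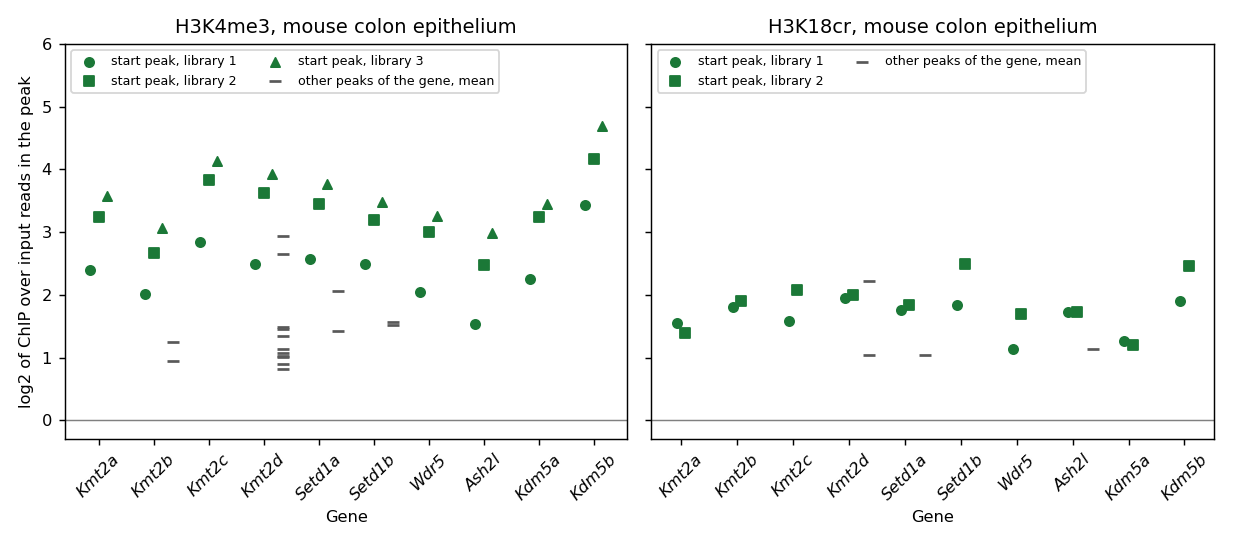
The log2 ratio of ChIP to input reads in mouse colon epithelium for H3K4me3 (3 libraries over 1 input) and H3K18cr (2 libraries, each over the input with its number); green symbols are the start peak in each library and grey dashes the mean of other peaks of the gene. Kdm5b is highest in H3K4me3, and Kmt2d alone has a long column of further H3K4me3 peaks.

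Kmt2d differed from the rest in having 12 H3K4me3 peaks. As many were found at 58 of the 16260 colon genes with a peak, or 0.357%, and at 5 of 2158 such genes of 30 to 50 kb, whereas the median gene had 1. Besides the start peak and a peak at the start of Prkag1, 10 lay along the gene. These 10 covered 17700 bp, of which 74.7% was exon and 67.3% coding sequence of Kmt2d, and 2 of them lay within 1 kb of the start of an annotated internal Kmt2d transcript. The widest (chr15:98851201-98854950) held 138, 169 and 170 scaled reads against 90.0 in the input, and another over coding exon (chr15:98843401-98846700, 94.0% coding) held 126, 147 and 191 against 70.0. All 10 were above input in each of the 3 libraries, with log2 ratios of the means between 0.81 and 2.93 and a median of 1.10. They were weak beside the start peak (3.47), and between 39.98 and 53.6 mean reads per kb against 206 at the start. The highest ratio belonged to a 750 bp peak with 4 reads in the input, which overlaps the start of an annotated internal Kmt2d transcript. G and C made up a median of 58.5% of these peaks, against 57.1% over 1311 H3K4me3 peaks of chromosome 15 and 54.8% of the gene. Kmt2d had 3 H3K18cr peaks in colon, none of them over its coding exons.

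**Figure D5:**
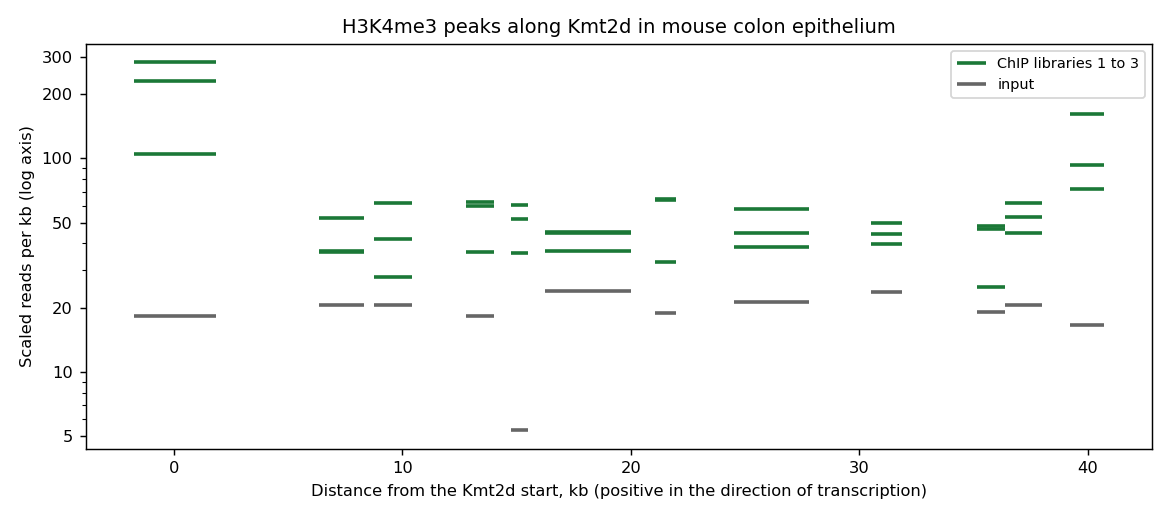
Scaled reads per kb (log axis) in each of the 12 H3K4me3 peaks at Kmt2d against the distance from its start in kb, for the 3 ChIP libraries (green) and the input (grey); line length is the peak's width. ChIP values fall from the start to a low band along the gene and rise again at the far end, where Prkag1 starts, and the input does not follow this course.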

How the data were processed

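The authors deposited raw counts per gene for RNA, log2 reads per peak scaled to the largest library for HCT116 ChIP-seq (0.9 read in place of 0), and a coverage signal for the colon peaks in the form of scaled reads. The submitters' processing notes name Trim Galore 0.4.2, TopHat2 2.0.12, Bowtie2 2.2.5 and the builds GRCh38 and GRCm38. By the study's methods, reads were filtered by mapping quality, duplicates were removed from ChIP-seq reads, and colon H3K4me3 peaks were called with MACS in SeqMonk against input. How the other MACS peak lists were called is not given in the sources used here. Each table holds 1 peak list with values for all of its libraries, and which libraries the list was called on is not given either. Those methods count 2 HCT116 H3K18cr replicates, whereas the labels give 3 libraries per treatment, and all 3 were used. The RNA kit kept strand, and the strand setting in counting is not given in the sources used here.

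RNA counts were tested with edgeR 4.0.16 (quasi-likelihood, TMM scaling, R 4.3.3) and peaks with limma 3.58.1 on the deposited log2 values, keeping peaks with at least 10 reads in at least 3 libraries. Benjamini-Hochberg adjustment ran over all genes or peaks tested, at a threshold of 0.05, and all tests were two-sided. Scripts were tested on simulated data. Deviations from group means of same-numbered DMSO and MS275 RNA libraries correlated at 0.23, 0.15, 0.43 and 0.46, so the numbers were taken to pair them, although the labels do not say what a number marks and DMSO library 2 correlated more with MS275 library 4 (0.24). The start peak of each of the 10 genes is the peak over its main annotated start, and the background of start peaks holds all peaks within 1 kb of a protein-coding start. RPKM is CPM per kb of merged exons. Alternatives were DESeq2 1.42.0, other scaling, filters and variance priors, the replicate block and leaving out each library. The 10 genes were named throughout, with list genes that passed the threshold (at most 4 per list), other peaks that passed, CDKN1A and the 3 genes most like WDR5. The members and lists were chosen with earlier results of these data known. Depth limits the precision of every value, and intervals cover the spread between libraries only.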

Additional observations from a re-analysis of the deposited data

Results flagged for a closer look

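KMT2C in DMSO-treated HCT116 cells stood out for 1 library of 4, since library 3 was at 12.8 CPM and the other libraries lay between 21.0 and 21.9. The gap to the nearest library made up 0.897 of the range of the group, and chance marks about 1 group in 20 in this way. MS275 library 3 was the lowest of its group too, at 18.4 CPM, and both libraries numbered 3 had the lowest TMM factors.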

How the results depend on the processing

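For RNA, 1 gene was called without the replicate block and 2151 with it, 161 by DESeq2 and 13 without the filter on low counts. Leaving out 1 library gave between 0 and 1 genes, and the block without 1 pair, chosen after seeing the data, 968, 994, 2584 and 1037 genes without pairs 1 to 4. Of the 10 enzymes the block called 4, and between 0 and 5 without 1 pair (1 each without pair 1 or pair 2). When 1 library was left out, log2 changes ranged from -0.17 to 0.042 for ASH2L (above 0 without DMSO library 1, DMSO library 4 or MS275 library 3), from -0.046 (without MS275 library 3) to 0.30 for KDM5A and from -0.21 (without MS275 library 4) to 0.68 for KDM5B, so the sign turned for these 3. None of the 3 was called without the block, and KDM5B was called with it once pair 3 was left out.

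For H3K18cr 5750 peaks were called, 5468 by edgeR and 0 by limma with TMM scaling with or without the replicate block. A trend in the variance prior called 9321, or 5199 with TMM scaling. Leaving out 1 library gave between 0 and 8512. Of the 10 start peaks 8 were called, 7 with the replicate block (KMT2D just missing the threshold), 8 by edgeR with TMM scaling, 8 by limma with TMM scaling and the trend, 0 by limma with TMM scaling with or without the block, and between 0 and 8 without 1 library. For H3K18ac 4765 peaks were called, 3118 with the replicate block, 4304 with TMM scaling and 0 with the block and TMM scaling. The trend called 6652, or 8479 with TMM scaling, and edgeR called 8549. Between 1048 and 7567 were called without 1 library. Of the 10 start peaks 5 were called, 4 with the replicate block (SETD1B lost, adjusted p = 0.0561 by limma), 3 with TMM scaling, 0 with TMM scaling and the block, 8 with the trend, 8 with TMM scaling and the trend, 8 by edgeR, and between 0 and 8 without 1 library. Higher against lower calls were 140 and 5610 for H3K18cr as deposited and 918 and 4550 by edgeR with TMM scaling, and for H3K18ac 144 and 4621 as deposited, 846 and 3458 with TMM scaling and 1899 and 6650 by edgeR. The cause was not tested. The study tested ChIP-seq libraries in pairs, and the labels do not say what a number marks. Same-numbered ChIP-seq libraries correlated between 0.079 and 0.24 for H3K18cr and between -0.21 and 0.049 for H3K18ac, so the correlations do not show a pairing for every number, and MS275 library 2 of H3K18cr correlated best with another number. The combined settings of scaling with block or trend were chosen after seeing the data. By ChIP minus input Kdm5b ranked 3 in H3K4me3 and not 1, and by that difference per bp of peak it ranked 1. Of the values of counts, levels and ranks under an alternative, 48 moved by more than 1.5 times or in rank and 83 did not.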
